A study of Capra hircus with 13 samples.

Results

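The mature mammalian oocyte waits at metaphase of the second meiotic division (MII), and the 8 genes described here encode regulators that hold it there or let it go. They are *MOS*, *WEE2*, *FBXO43*, *PTTG1*, *CCNB1*, *CCNB2*, *CDC20* and *CDC25B*, 8 of the 18138 gene names listed once in all 5 tables of the goat (*Capra hircus*) series. The set was chosen by function, and also on a measured value, because *PTTG1* has the largest FPKM of any gene in the MII libraries. The levels of these 8 genes in MII, and their comparisons with MII, are therefore given as a description with no test. At the edge of that choice, the mean FPKM in MII was 11977 for *PTTG1*, 10466 for the next name (LOC102171358) and 5907 for *TMSB4X*. All 8 genes passed the filter on low values, a mean of at least 1 FPKM, in both fits. None of them overlaps another gene in the reference gene table used.

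RNA was measured by Smart-seq2 in 13 libraries. Of these, 9 came from untreated material, with 3 libraries of MII oocytes, 3 of 4-cell embryos and 3 of 8-cell embryos, which the authors took from 2 earlier studies of their own. The study behind each of these libraries is not given in the sources used here, so study and stage cannot be told apart. The remaining 4 libraries came from pooled 8-cell embryos that had been injected as zygotes 8 h after in vitro fertilization (IVF), 2 with a negative control siRNA (NC, whose sample titles say WT) and 2 with 20 µM siRNA against *YTHDF2* (YTHDF2-KD). Oocytes were matured in vitro and embryos were made by IVF, so no group stands for embryos formed in vivo, no strain or age is given, and the injected groups share the injection itself. An siRNA lowers a transcript without deleting the gene. YTHDF2 is a cytoplasmic reader protein that binds N6-methyladenosine in mRNA and promotes decay of the bound transcripts. *YTHDF2* was at 112 and 159 FPKM in NC and at 8.07 and 4.47 FPKM in YTHDF2-KD, a difference of -4.25 in mean log2(FPKM + 1) (SE 0.43, limma adjusted p = 0.00037).

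During MII arrest, CDK1 bound to cyclin B keeps the spindle and condensed chromosomes in place, and the anaphase-promoting complex (APC/C) is held in check. The kinase MOS acts through the MAPK cascade to sustain the inhibitor FBXO43 (also named EMI2), which blocks the APC/C. At fertilization a calcium signal destroys FBXO43, the APC/C with its activator CDC20 marks cyclin B and securin (PTTG1) for destruction, separase is freed, and the oocyte completes meiosis. WEE2 places inhibitory phosphates on CDK1 and CDC25B removes them. Several of these transcripts are made during oocyte growth, stored, and translated later, so they count among the maternal mRNAs that an embryo inherits.

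Values are FPKM, that is fragments per kilobase of gene model scaled to the mapped fragments of the library, so levels of different genes are compared per length. The untreated libraries held 26853876 to 42495116 fragments, and the member with the fewest had between 516 and 4723 of them (*CDC20*). The number of transcript molecules behind these fragments is not given, so the part of counting error in the spread between libraries was not tested. Among all genes, 4-cell replicate 2 and 8-cell replicate 1 stood apart from the others of their stage. They had 9434 and 10373 genes at 1 FPKM or more, where the other libraries of their stages had 8565 to 9006, and 8-cell replicate 1 correlated with its replicates at r = 0.854 and 0.898 where the other pair reached 0.966. MII replicate 2 also differed from its replicates, with r = 0.963 and 0.946 where the other pair reached 0.977 and with 8805 genes at 1 FPKM or more against 8115 and 8077. Leaving it out moved the differences of the 8 genes from MII by at most 0.17 (log2). Results that rest on 4-cell replicate 2 and 8-cell replicate 1 are given with and without them. Each library was scaled on its own and each stage has its own table, where 18858 names are listed once for MII and 21826 for either embryo stage. The genes shared by the tables held 64.8 to 66.3% of the fragments in MII and 94.7 to 97.0% in the embryos, and the median difference of all 9090 genes fitted was 0.29 (log2) between 4-cell and MII and 0.37 between 8-cell and MII. A difference of the 8 genes from MII is therefore also given relative to that median. A gene is called when its unadjusted p is under 0.05 and it changes more than 2-fold, the rule of the study, and the Benjamini-Hochberg adjusted p over all fitted genes stands beside each call. Values are scaled to the mapped fragments, so a change of a transcript and a change in the total polyA RNA cannot be told apart. In bulk libraries, a change in every cell and a change in some cells of an embryo cannot be told apart either.

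The oocyte identity of the material was checked against 10 oocyte genes, of which 8 are listed in the tables. All 8 were above 0 in every library, and 7 or 8 of them were at 1 FPKM or more in each untreated library. Of the cumulus and granulosa genes, cells that surround the oocyte, *FSHR* and *AMH* were at 0.248 FPKM or less in the untreated libraries and *INHA* reached 1.36 in MII, whereas *STAR* was at 26.7 to 95.6, *HAS2* at 8.15 to 29.4 and *TNFAIP6* at 0.782 to 19.8. The 9 listed genes of this list summed to 41.0 to 61.1 FPKM in MII, 51.4 to 65.2 in 4-cell and 84.3 to 127 in 8-cell embryos, and their part in the results was not tested. Sperm genes and leukocyte genes each summed to at most 1.56 FPKM in the untreated libraries.

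In MII the order of the 8 genes by mean FPKM (± SD, *n* = 3) was *PTTG1* 11977 ± 2434, *WEE2* 580 ± 37.8, *CCNB1* 328 ± 15.2, *CCNB2* 272 ± 41.8, *MOS* 138 ± 22.9, *FBXO43* 93.1 ± 10.8, *CDC20* 31.3 ± 4.30 and *CDC25B* 8.10 ± 1.92. The libraries of neighbours in this order overlapped for *CCNB1* and *CCNB2*, and did not overlap for any other neighbours. In 4-cell embryos *CCNB1* stood above *WEE2* and *FBXO43* above *CCNB2* and *MOS*, and libraries of neighbours overlapped except for *PTTG1* over *CCNB1* and *WEE2* over *FBXO43*. In 8-cell embryos the order was *PTTG1*, *WEE2*, *CCNB1*, *MOS*, *CCNB2*, *FBXO43*, *CDC20* and *CDC25B*. There *PTTG1*, *WEE2* and *CCNB1* each lay apart from the next gene, and the remaining neighbours overlapped.

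**Figure D1:**
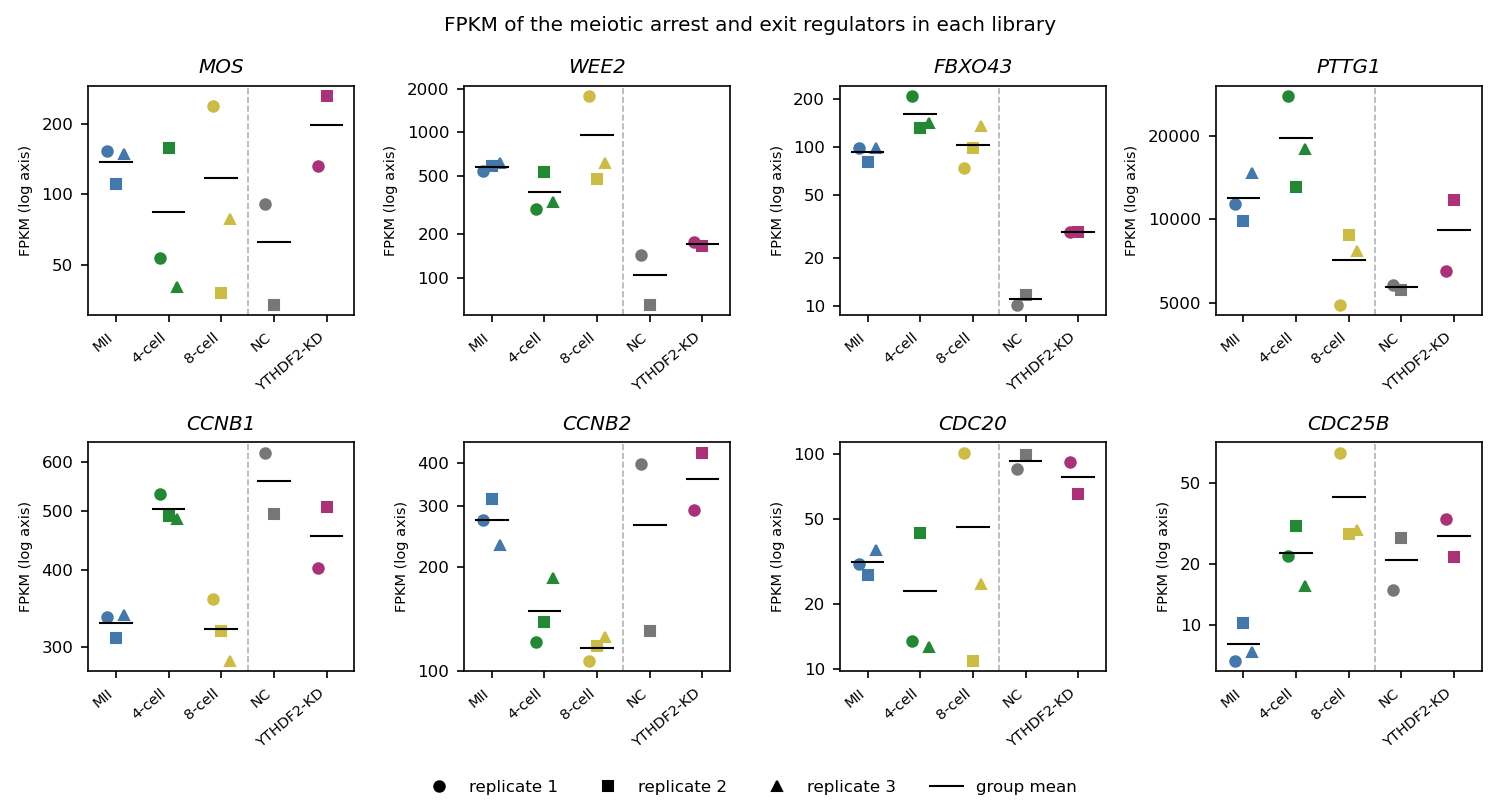
FPKM (log axis) of the 8 genes in each of the 13 libraries, with 1 panel per gene, a symbol per replicate and a line at the mean of each group. The dashed line parts the untreated from the injected libraries, which belong to another experiment. *PTTG1* was at 4915 FPKM or more in every library, *CCNB1* was close within each untreated stage, and *MOS*, *WEE2* and *CDC20* spread widely in 8-cell embryos.

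Securin, encoded by *PTTG1*, holds separase inactive until anaphase. Its FPKM was 11390, 9891 and 14652 in MII, 27729, 13117 and 17856 in 4-cell embryos, and 4915, 8768 and 7669 in 8-cell embryos. Its rank among all genes was 1 in each MII library, 2 in each 4-cell library and 4 in each 8-cell library, and it made up 3.42 to 5.12%, 3.29 to 6.27% and 1.27 to 2.11% of the summed FPKM. The 8-cell libraries lay below every MII and 4-cell library, whereas MII and 4-cell libraries overlapped. *PTTG1* fell between the 4-cell and the 8-cell stage by 1.43 on the log2 scale (SE 0.31, 95% interval -2.13 to -0.74, 2.7-fold, limma adjusted p = 0.026). Without the 2 libraries that stood apart the difference was -1.44 (adjusted p = 0.023). It was the member with the lowest adjusted p among those past 2-fold, on a level that 3 genes exceeded in each 8-cell library.

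The B-type cyclins are the activating partners of CDK1, and both are substrates of the APC/C. *CCNB1* was at 335, 311 and 338 FPKM in MII, at 533, 490 and 485 in 4-cell embryos, and at 359, 318 and 285 in 8-cell embryos. All 4-cell libraries lay above all others, and MII and 8-cell libraries overlapped. As a share of the summed FPKM, 4-cell and MII libraries overlapped as well, at 0.112 to 0.123% and 0.107 to 0.121%, and their difference of 0.61 (log2) was 0.08 with the same sum of FPKM in every library. Between the 4-cell and the 8-cell stage its difference was -0.65 (SE 0.14, 95% interval -0.97 to -0.34, 1.57-fold, limma adjusted p = 0.025), which is under the 2-fold change asked of a call. The share of fitted genes with a smaller replicate SD was 9.22% in MII, 4.68% in 4-cell and 17.3% in 8-cell embryos, and 40.2% in NC and 40.4% in YTHDF2-KD.

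*CCNB2* took another course. It was at 272, 314 and 231 FPKM in MII, at 121, 139 and 186 in 4-cell embryos, and at 107, 118 and 125 in 8-cell embryos. Every embryo library lay below every MII library, with differences from MII of -0.88 (SE 0.19) in 4-cell embryos and -1.20 (SE 0.19, 2.31-fold) in 8-cell embryos, or -1.17 and -1.57 relative to the median of all genes. The embryo stages overlapped, and their difference of -0.32 had a 95% interval of -0.76 to 0.11 (limma adjusted p = 0.34). The ratio of *CCNB1* to *CCNB2* within a library, which no scaling of the library can move, was 1.23, 0.989 and 1.47 in MII, 4.40, 3.53 and 2.61 in 4-cell embryos, and 3.36, 2.69 and 2.27 in 8-cell embryos. Every embryo library had a higher ratio than every MII library. The same ratio was 1.57 and 3.80 in NC and 1.39 and 1.19 in YTHDF2-KD, so the control libraries lay far apart from each other.

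WEE2 is an oocyte kinase that inhibits CDK1, and CDC25B is a phosphatase that activates it. *WEE2* was at 539, 587 and 614 FPKM in MII, at 297, 536 and 330 in 4-cell embryos, and at 1767, 478 and 618 in 8-cell embryos. Its differences from MII were -0.63 and 0.47, or -0.91 and 0.11 relative to the median of all genes. The 4-cell libraries lay below the MII libraries, 4-cell replicate 2 only just, and 8-cell replicate 1 stood far above the other 8-cell libraries. By the unadjusted p and the fold it passed the call rule between the 4-cell and the 8-cell stage (1.1, SE 0.43, 95% interval 0.14 to 2.07, 2.15-fold, limma adjusted p = 0.16), although the groups overlapped. The call was lost without 8-cell replicate 1, where the difference was 0.54 (adjusted p = 0.24), and also without 4-cell replicate 1 (0.94, adjusted p = 0.37) or 4-cell replicate 3 (1.01, adjusted p = 0.35). With both libraries that stood apart left out, the difference was 0.79 (adjusted p = 0.042), under 2-fold.

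*CDC25B*, the member at the lowest level in MII, was at 6.65, 10.3 and 7.38 FPKM there, at 21.9, 30.7 and 15.6 in 4-cell embryos, and at 70.4, 27.9 and 29.2 in 8-cell embryos. Every embryo library lay above every MII library. Its difference from MII was 1.35 (SE 0.38, 2.55-fold) in 4-cell embryos and 2.14 (SE 0.38, 4.42-fold) in 8-cell embryos, or 1.07 and 1.78 relative to the median of all genes. Without the 2 libraries that stood apart the differences from MII were 1.12 and 1.72, and with the same sum of FPKM in every library the 4-cell value was 0.86, under 2-fold. The embryo stages did not pass the test against each other (0.79, SE 0.38, 95% interval -0.05 to 1.64, limma adjusted p = 0.23). That value was 0.60 without the 2 libraries that stood apart and 0.37 without 8-cell replicate 1, and it passed the call rule without 4-cell replicate 2 (1.03, adjusted p = 0.17) or 8-cell replicate 2 (1.02, adjusted p = 0.14). Within each library, the ratio of *WEE2* to *CDC25B* was 81.1, 57.2 and 83.2 in MII, 13.5, 17.5 and 21.2 in 4-cell embryos, and 25.1, 17.1 and 21.1 in 8-cell embryos. The lowest MII ratio, 57.2, was above the highest embryo ratio, 25.1, and the libraries that stood apart fell in with their stage. In the injected embryos the ratio was 9.73 and 2.42 in NC, and 5.30 and 7.63 in YTHDF2-KD.

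**Figure D2:**
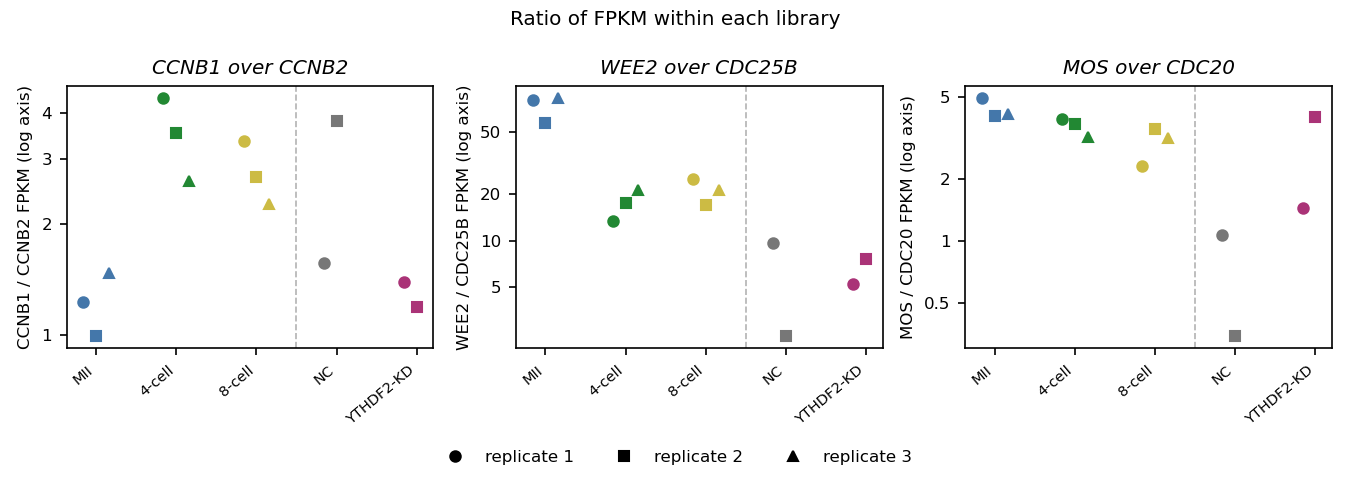
Ratio of the FPKM of gene pairs within each library (log axis), for *CCNB1* over *CCNB2*, *WEE2* over *CDC25B* and *MOS* over *CDC20*, with a symbol per replicate. The MII libraries lie apart from all 4-cell and 8-cell libraries in the first and second panels, at 0.989 to 1.47 and at 57.2 to 83.2, and also in the last panel, at 4.06 to 4.97. They do not lie apart in the ratio of *PTTG1* to *CDC20*, which is not drawn.

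The kinase MOS begins the MAPK cascade of the arrest. Its transcript was at 153, 111 and 149 FPKM in MII, at 53.4, 158 and 40.5 in 4-cell embryos, and at 236, 38.1 and 78.5 in 8-cell embryos. The MII libraries were alike, and the embryo libraries were not. The highest was 3.91 times the lowest in 4-cell embryos and 6.20 times in 8-cell embryos, against 1.37 times in MII. The high libraries were 4-cell replicate 2 and 8-cell replicate 1. Without them *MOS* differed from MII by -1.53 in 4-cell embryos and -1.30 in 8-cell embryos, where all libraries gave -0.95 (SE 0.65) and -0.60 (SE 0.65), or -1.23 and -0.97 relative to the median of all genes. Without 8-cell replicate 2, the lowest 8-cell library, the 8-cell value was 0.00. Between the embryo stages the difference was 0.35, with a 95% interval of -1.1 to 1.8 (limma adjusted p = 0.77), and leaving out 8-cell replicate 1 or 8-cell replicate 2 gave -0.35 or 0.95.

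CDC20 brings substrates to the APC/C. *CDC20* was at 30.7, 27.4 and 35.9 FPKM in MII, at 13.6, 42.7 and 12.7 in 4-cell embryos, and at 101, 10.9 and 24.9 in 8-cell embryos. It followed the pattern of *MOS*, with the same 2 high libraries and with embryo values below MII in every other embryo library. Without them the difference from MII was -1.19 in 4-cell embryos and -0.87 in 8-cell embryos, where all libraries gave -0.64 (SE 0.71) and -0.02 (SE 0.71), or -0.93 and -0.39 relative to the median of all genes. Without 8-cell replicate 2, the lowest library, the 8-cell value was 0.68, so no direction is given. The embryo stages differed by 0.62 (95% interval -0.97 to 2.21, limma adjusted p = 0.61), by -0.23 without 8-cell replicate 1 and by 0.32 with both libraries that stood apart left out. The ratio of *MOS* to *CDC20* ran less widely in the untreated libraries than either gene, at 4.97, 4.06 and 4.14 in MII, 3.94, 3.70 and 3.19 in 4-cell embryos, and 2.33, 3.49 and 3.16 in 8-cell embryos. In the injected libraries it ran from 1.07 and 0.343 in NC to 1.45 and 4.01 in YTHDF2-KD. A further ratio, of *PTTG1* to *CDC20*, did not set MII apart. It was 371, 361 and 408 in MII, 2040, 307 and 1410 in 4-cell embryos, and 48.5, 802 and 308 in 8-cell embryos.

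FBXO43 blocks the APC/C during the arrest. *FBXO43* was at 99.2, 80.6 and 99.5 FPKM in MII, at 209, 133 and 142 in 4-cell embryos, and at 74.3, 98.3 and 137 in 8-cell embryos. The 4-cell libraries lay above the MII libraries, by 0.76 on the log2 scale (SE 0.25) or 0.48 relative to the median of all genes. With the same sum of FPKM in every library this was 0.23, and the shares of the summed FPKM overlapped, at 0.0329 to 0.0473% in 4-cell and 0.0279 to 0.0358% in MII libraries. The 8-cell libraries overlapped both other stages. The embryo stages differed by -0.65 (SE 0.25, 95% interval -1.22 to -0.09, limma adjusted p = 0.15), which is not a call. Against MII in 8-cell embryos, the value of 0.11 turned to -0.27 under median-ratio rescaling and to -0.31 when the libraries were scaled to the same sum of FPKM, and to -0.11 without 8-cell replicate 3, so no direction is given.

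Over the 8 genes, the groups did not overlap between the 4-cell stage and MII for 3 genes with higher levels (*FBXO43*, *CCNB1*, *CDC25B*) and 2 with lower levels (*WEE2*, *CCNB2*). Of all 9090 genes 37.8% and 14.1% did so. Of these members, *CDC25B* alone was past 2-fold with groups apart, for which the background was 16.2% higher and 6.45% lower. Between the 8-cell stage and MII, *CDC25B* was higher and *PTTG1* and *CCNB2* were lower without overlap, against 36.4% and 13.7% of all genes, and *CDC25B* and *CCNB2* were also past 2-fold, against 19.2% and 7.57%. Nothing is read from these counts, since the choice of the genes used the MII libraries. Relative to the median of all genes, *CCNB1* was 0.33 above MII in 4-cell embryos and -0.41 in 8-cell embryos, and *PTTG1* was 0.37 and -1.14. Between the 8-cell and the 4-cell stage, which can be tested, 1 member rose (*WEE2*) and 1 fell (*PTTG1*) by the call rule, against 4.55% and 4.28% of all genes. With the adjusted p in the same rule *PTTG1* alone was called, against 2.29% and 3.17% of all genes. The groups were apart for *PTTG1* and *CCNB1*, both lower in 8-cell embryos, where 16.6% of all genes were apart and lower and 11.6% apart and higher. The median difference of the 8 genes was 0.01, and that of all genes 0.07.

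**Figure D3:**
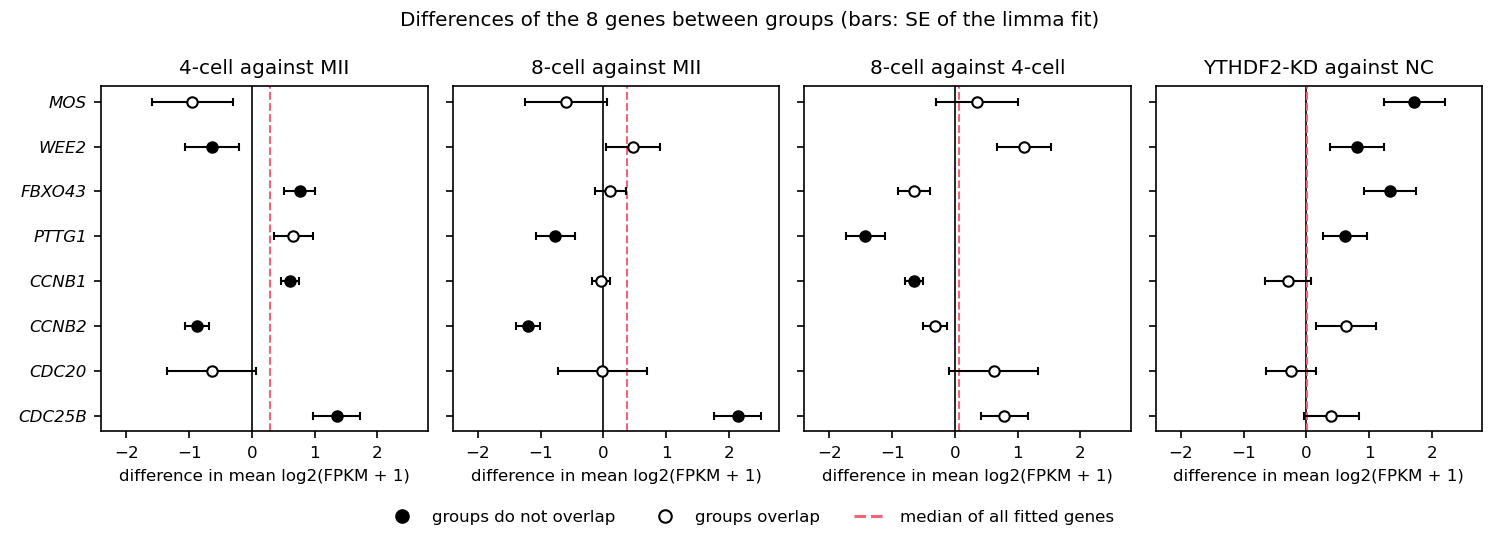
Difference in mean log2(FPKM + 1) of each gene in 4 comparisons, with the SE of the limma fit as bars and a dashed line at the median of all fitted genes. Filled points mark groups that do not overlap. *CDC25B* was the furthest to the right in both comparisons with MII, *PTTG1* the furthest to the left between 8-cell and 4-cell, and *MOS* and *FBXO43* the furthest to the right after *YTHDF2* knockdown.

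The deviations of the libraries from the mean of their stage are given beside the share of all genes. *MOS*, *WEE2*, *CDC20* and *CDC25B* were highest in 4-cell replicate 2 and also in 8-cell replicate 1, as were 33.8% of the 9090 genes. In 8-cell replicate 1 they deviated by 1.39, 1.13, 1.69 and 0.85 on the log2 scale. *FBXO43* and *PTTG1* were lowest in both of these libraries, as were 14.2% of the genes, and *CCNB1* and *CCNB2* deviated by at most 0.17 in either library. Over all genes, the deviations of these 2 libraries correlated at r = 0.51, which is given as a description, over genes that share the same libraries. Against the other genes, the replicate SD of *MOS* was larger than that of 99.1% of genes in 4-cell embryos, and that of *CDC20* larger than that of 98.5%. Both lay near the middle in MII, at 60.2% and 45.6%.

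**Figure D4:**
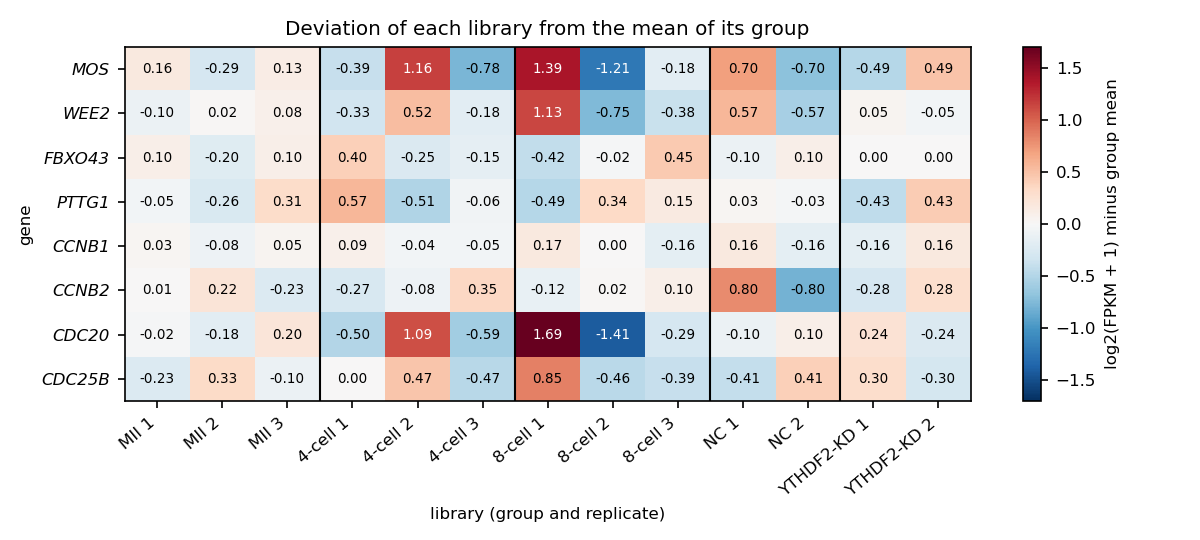
Deviation of log2(FPKM + 1) of each gene in each library from the mean of its group, in rows by gene and columns by library, with colour and printed value on the same log2 scale. *MOS*, *WEE2*, *CDC20* and *CDC25B* are highest in both 4-cell replicate 2 and 8-cell replicate 1, as are 33.8% of all fitted genes. *CCNB1* stays within 0.17 in every column.

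The comparison of the injected embryos asks whether these transcripts, once inherited, differ when the reader YTHDF2 is scarce. *MOS* rose, from 91.5 and 34.0 FPKM in NC to 133 and 261 in YTHDF2-KD. The groups did not overlap, and the difference was 1.72 (SE 0.49, 95% interval 0.66 to 2.77, 3.29-fold, limma adjusted p = 0.047). Without NC replicate 2, its lowest library, the difference was 1.02 and no longer a call (adjusted p = 0.33). *FBXO43*, the APC/C inhibitor, rose from 10.2 and 11.8 FPKM to 29.1 and 29.0, a difference of 1.33 (SE 0.41, 95% interval 0.46 to 2.21, 2.52-fold, limma adjusted p = 0.058). It passed the call rule by the unadjusted p but not by the adjusted p. Leaving out any 1 library kept its difference between 1.23 and 1.43.

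*WEE2* and *PTTG1* were also higher in both YTHDF2-KD libraries than in both NC libraries, without passing the test. *WEE2* was at 144 and 65.2 FPKM in NC and at 175 and 164 in YTHDF2-KD, a difference of 0.80 (95% interval -0.12 to 1.72, limma adjusted p = 0.23), which was 0.23 without NC replicate 2 and a call at 1.37 without NC replicate 1 (adjusted p = 0.12). *PTTG1* was at 5810 and 5579 FPKM in NC and at 6514 and 11762 in YTHDF2-KD, a difference of 0.62 (95% interval -0.13 to 1.37, limma adjusted p = 0.25), which was 0.19 without YTHDF2-KD replicate 2 and 1.05 without YTHDF2-KD replicate 1. The cyclins, *CDC20* and *CDC25B* overlapped between the groups. *CCNB1* was at 622 and 494.5 FPKM against 404 and 507, and *CCNB2* at 397 and 130 against 291 and 427, where NC replicate 2 was the lowest library and NC replicate 1 lay between the others. *CDC20* was at 85.5 and 99.0 FPKM against 91.6 and 65.0, and *CDC25B* at 14.8 and 26.9 against 33.0 and 21.5. Their differences of -0.29, 0.63, -0.25 and 0.40 had limma adjusted p-values of 0.61, 0.39, 0.69 and 0.57, and 95% intervals that reach from -1.07 to 0.49, -0.39 to 1.65, -1.1 to 0.59 and -0.55 to 1.35. The value of *CCNB2* was -0.17 without NC replicate 2 and a call at 1.43 without NC replicate 1, and that of *CDC25B* was -0.01 without NC replicate 1 and 0.81 without NC replicate 2.

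By the call rule 2 of the 8 genes rose and 0 fell after *YTHDF2* knockdown, where 9.48% of all 11004 genes rose and 15.3% fell. At an unadjusted p under 0.05 with no fold asked, *MOS* and *FBXO43* were higher and 0 members were lower by limma, where 11.9% of all genes were higher and 17.6% lower. With the adjusted p in the rule *MOS* alone was called, against 2.06% and 5.92% of all genes. The groups were apart for 4 genes, all higher in YTHDF2-KD, where 30.3% of all genes were apart and higher and 30.7% apart and lower. The median difference of the 8 genes was 0.63 and that of all genes 0.01. Genes of the oocyte itself moved in the same direction. Of the 7 oocyte genes fitted, 5 rose (*ZP2*, *ZP3* and *ZP4*, which encode coat proteins of the egg, with *PADI6* and *ZAR1*, limma adjusted p from 0.058 to 0.15) and 0 fell, their median difference was 1.16, and the 8 listed oocyte genes summed to 451 to 668 FPKM in NC and to 857 to 1650 in YTHDF2-KD. The cumulus and granulosa list summed to 35.0 to 36.6 and 66.8 to 68.8 FPKM, with 2 of 3 fitted genes (*HAS2* and *TNFAIP6*) higher by the call rule. A set of genes switched on in the cleavage embryo summed to 3200 to 3940 and 3140 to 3490 FPKM, with 1 of 6 fitted genes (*KLF5*) lower and 0 higher. Sperm genes summed to 12.5 to 20.3 and 4.65 to 26.7 FPKM, and leukocyte genes to 3.02 to 8.03 and 1.01 to 2.05. The share of *TMSB4X* in the summed FPKM was 4.00 and 5.35% in NC and 9.87 and 12.62% in YTHDF2-KD. The part of these shifts in the values of *MOS* and *FBXO43* was not tested.

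Levels in the injected tables stand beside those of the untreated 8-cell libraries without a comparison, because experiment and injection differ together between them and cannot be told apart. *FBXO43* was at 10.2 to 29.1 FPKM in the injected libraries and at 74.3 to 137 in the untreated 8-cell libraries, and *WEE2* at 65.2 to 175 and 478 to 1767. *CDC20* was at 65.0 to 99.0 and 10.9 to 101, and *CCNB1* at 404 to 622 and 285 to 359. The rank of *PTTG1* among all genes was 7 and 9 in the NC libraries, and 5 and 3 in the YTHDF2-KD libraries. Cleavage embryo genes summed to 346 to 1400 FPKM in the untreated 8-cell libraries, and oocyte genes to 2470 to 2890.

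The partners of the 8 genes were described by 7 lists with 137 genes in all, of which 112 passed the filter in the untreated and 119 in the injected fit. Against MII, 17 rose and 5 fell in 4-cell embryos, where the share of all genes was 16.7% and 6.06%, and 19 rose and 8 fell in 8-cell embryos, where it was 19.8% and 8.14%. Their split turned with the scaling. Under median-ratio rescaling 8 rose and 9 fell in 4-cell embryos and 12 and 16 in 8-cell embryos, and with the same sum of FPKM per library 7 and 13, and 11 and 16. Among all genes the split of 1518 higher and 551 lower in 4-cell embryos became 940 and 913, and 614 and 1174, and that of 1804 and 740 in 8-cell embryos became 1132 and 1173, and 1052 and 1213. Between the embryo stages, 414 higher and 389 lower became 494 and 278 with the same sum of FPKM. No gene called below turned its direction under either scaling. Between the 8-cell and the 4-cell stage 4 rose and 5 fell, where the share of all genes was 4.55% and 4.28%. Under knockdown 12 of 119 rose and 7 fell, where it was 9.48% and 15.3%, or 3 and 2 by the adjusted p, where it was 2.06% and 5.92%. An unadjusted p under 0.05 at any fold was reached by 10.8% of all genes higher and 13.5% lower between the embryo stages, and by 11.9% and 17.6% after the knockdown.

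Among the CDK1 kinases, cyclins and phosphatases, 2 of 33 fitted genes rose and 2 fell from the 4-cell to the 8-cell stage, with a median difference of 0.13. *WEE1*, the somatic counterpart of *WEE2*, was at 0.208, 2.74 and 8.61 FPKM on average in MII, 4-cell and 8-cell libraries, and rose between the embryo stages by 1.34 (SE 0.27, adjusted p = 0.021). *CCNE1*, a cyclin of S phase entry, was at 3.09, 15.2 and 34.5 FPKM and rose by 1.1 (SE 0.29, adjusted p = 0.048). *BORA*, an activator of the kinase PLK1, was at 139, 158 and 64.6 FPKM and fell by 1.26 on the log2 scale (SE 0.21, adjusted p = 0.01). The call of *CCNE1* was lost without 4-cell replicate 3 (0.98) or 8-cell replicate 2 (0.84). *CDK1* itself was at 73.0, 136 and 104 FPKM, a difference of 0.90 between the 4-cell stage and MII (SE 0.18, adjusted p = 0.0049) that is under 2-fold. *ARPP19*, which when phosphorylated by MASTL inhibits the phosphatase PP2A, rose from 10.2 FPKM in MII to 43.3 in 4-cell and 42.7 in 8-cell embryos (2.00 and 1.91, adjusted p = 0.0013 and 0.0011). *MASTL* was at 38.7, 51.5 and 51.3 FPKM, and *PKMYT1*, another inhibitory kinase of CDK1, at 1.47, 0.459 and 1.16, without a call in any comparison. The 8-cell mean of *PKMYT1* rests on replicate 1, with libraries at 3.14, 0.0608 and 0.276 FPKM.

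Of the APC/C subunits and regulators, 1 of 21 rose and 1 fell between the embryo stages, with a median of -0.16. *FBXO5*, which encodes EMI1, the mitotic relative of FBXO43, was at 206, 147 and 75.9 FPKM and fell from MII to the 8-cell stage by 1.45 on the log2 scale (SE 0.22, adjusted p = 0.00096). Its difference between the embryo stages was -0.94 (SE 0.22, adjusted p = 0.032), just under 2-fold. *UBE2C*, the E2 enzyme that starts ubiquitin chains on APC/C substrates, was at 166, 258 and 543 FPKM and rose between the embryo stages by 1.04 (SE 0.27, adjusted p = 0.047). The call of *UBE2C* was lost without 4-cell replicate 1 (0.90) or 8-cell replicate 2 (0.80), and under median-ratio rescaling (0.96). The subunit gene *ANAPC13* fell from 49.3 to 18.7 FPKM, by 1.29 on the log2 scale (SE 0.34, adjusted p = 0.045). The subunit gene *ANAPC15* rose from 210 FPKM in MII to 822 and 824 in the embryo stages (1.93 for both, adjusted p = 0.00069 and 0.00048), and *SKP1*, a subunit of SCF ubiquitin ligases, from 1260 to 3110 in 4-cell embryos (1.24, adjusted p = 0.019). The value of *SKP1* was 0.94 without 4-cell replicate 1 or under median-ratio rescaling, under 2-fold. *FZR1*, the other activator of the APC/C, was at 2.53, 0.94 and 4.01 FPKM and passed no test.

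In the spindle checkpoint list, 1 of 17 genes rose and 2 fell between the embryo stages, with a median of 0.03. *ZWINT*, a kinetochore gene, was at 25.1, 62.6 and 139 FPKM and rose at each step (1.28 and 1.16, adjusted p = 0.0034 and 0.021). *KNTC1* fell from 23.6 to 9.62 FPKM (-1.24, SE 0.24, adjusted p = 0.018). *BUB3* rose from 60.4 FPKM in MII to 141 in 8-cell embryos (1.23, adjusted p = 0.0015), and *SPC25* passed the rule from MII to the 4-cell stage, from 6.80 to 16.8 FPKM (1.49, adjusted p = 0.1). The step of *ZWINT* from MII was 0.99 under median-ratio rescaling and that between the embryo stages 0.98 without 4-cell replicate 1, that of *KNTC1* -0.95 without the 2 libraries that stood apart, and that of *BUB3* 0.85 under median-ratio rescaling, each under 2-fold. *SPC25* lost its call when any 1 of 5 libraries was left out, with values from 1.05 to 1.59. *MAD2L1*, which holds CDC20 inactive, was at 307, 343 and 293 FPKM and passed no test.

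Of the separase and cohesion genes, 0 of 16 were called between the embryo stages by limma, where 5 were lower at an unadjusted p under 0.05 (13.5% of all genes), with a median of -0.29. *ESPL1*, which encodes the separase that securin inhibits, was at 3.28, 0.745 and 1.95 FPKM, far below *PTTG1*, and fell from MII to the 4-cell stage by the unadjusted p (-1.29, SE 0.51, adjusted p = 0.083). The cohesin protectors *SGO2* and *SGO1* differed. *SGO2* rose from 42.0 to 94.2 and 95.6 FPKM (1.15 and 1.17, adjusted p = 0.0012 and 0.00075), and *SGO1* fell from 132 to 66.7 FPKM in 8-cell embryos (-1.01, SE 0.23, adjusted p = 0.0073). Of the 4 fitted genes of the MOS-MAPK pathway, the 10 of the calcium signal and the 11 of the prophase arrest by cAMP, 0 were called between the embryo stages by limma, and 0, 2 and 1 had an unadjusted p under 0.05. *CAMK2D* rose from 6.65 FPKM in MII to 21.7 in 8-cell embryos (1.56, adjusted p = 0.00019), and *PRKACB*, a catalytic subunit of protein kinase A, rose from 21.6 to 45.5 and 51.9 (1.04 and 1.22, adjusted p = 0.0025 and 0.00085). Under median-ratio rescaling *SGO2* was at 0.86 and 0.79 and *PRKACB* at 0.75 and 0.85, under 2-fold, and *PRKACB* in 4-cell embryos was also at 0.95 without 4-cell replicate 1. *SGO1* was under 2-fold without MII replicate 1, 8-cell replicate 2 or 8-cell replicate 3 (-0.96, -0.83 and -0.97), and *ESPL1* lost its call when any 1 of 5 libraries was left out (-1.31 to -1.23). In 8-cell embryos *ESPL1* differed from MII by -0.91, not a call, and by -1.62 without 8-cell replicate 1, a call.

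After *YTHDF2* knockdown the APC/C list held 4 rises and 2 falls among 23 genes, with a median of 0.09, where 9.48% of all genes rose and 15.3% fell. *ANAPC13* rose from 12.9 to 49.4 FPKM (1.75, SE 0.45, adjusted p = 0.032) and *ANAPC15* from 393 to 958 (1.28, SE 0.36, adjusted p = 0.041), whereas *ANAPC16* fell from 18.6 to 3.50 (-1.89, SE 0.53, adjusted p = 0.043). In the MOS-MAPK pathway 2 of 6 genes rose, among them *MAP2K1*, the kinase that MOS phosphorylates, from 28.9 to 69.5 FPKM (1.13, adjusted p = 0.12). Of the 35 CDK1 regulators 3 rose and 2 fell, with *BORA* from 8.43 to 23.0 FPKM (1.23, adjusted p = 0.11), *CCNO* from 14.0 to 31.8 (1.14, adjusted p = 0.11) and *ARPP19* from 43.3 to 14.3 (-1.47, adjusted p = 0.054). The spindle checkpoint list had 1 rise, *TRIP13*, from 15.8 to 48.5 FPKM (1.56, adjusted p = 0.033), and 2 falls, *MAD2L1BP* from 21.7 to 7.69 (-1.38, adjusted p = 0.06) and *SPC25* from 37.7 to 17.3 (-1.08, adjusted p = 0.1). Of the separase and cohesion genes 2 of 18 rose, including *ESCO2* from 140 to 305 FPKM (1.11, adjusted p = 0.092), and *STAG2* fell from 50.1 to 23.2 (-1.32, adjusted p = 0.11). The calcium and cAMP lists had 0 calls by limma, and 0 genes at an unadjusted p under 0.05. Leaving out 1 library kept the calls of *ANAPC13*, *ANAPC15* and *TRIP13*. Among the others, *BORA*, *MAP2K1* and *STAG2* came to 0.61, 0.55 and -0.45 without YTHDF2-KD replicate 2, *CCNO*, *ESCO2*, *ARPP19* and *MAD2L1BP* to 0.81, 0.83, -1.01 and -1.16 without NC replicate 2, and *ANAPC16* and *SPC25* to -1.03 and -1.05 without NC replicate 1, none of them called.

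No fitted direct partner of the 8 genes was called after the knockdown. *CDK1* was at 205 FPKM in NC and 122 in YTHDF2-KD (-0.74, adjusted p = 0.2), and *FBXO5* at 102 and 52.6 (-0.96, adjusted p = 0.13), both with groups apart. *MASTL*, at 17.1 to 21.2 FPKM in NC and 24.1 to 26.7 in YTHDF2-KD, and *WEE1*, at 4.02 to 7.91 and 3.03 to 3.95, had groups apart too. *FZR1* was at 38.9 and 59.9 FPKM, *ESPL1* at 4.45 and 2.76 and *MAD2L1* at 673 and 723, with groups that overlapped. The adjusted p-values of these 5 genes were from 0.4 to 0.91. *PKMYT1*, at 0.94 and 0.87 FPKM, was not fitted.

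**Figure D5:**
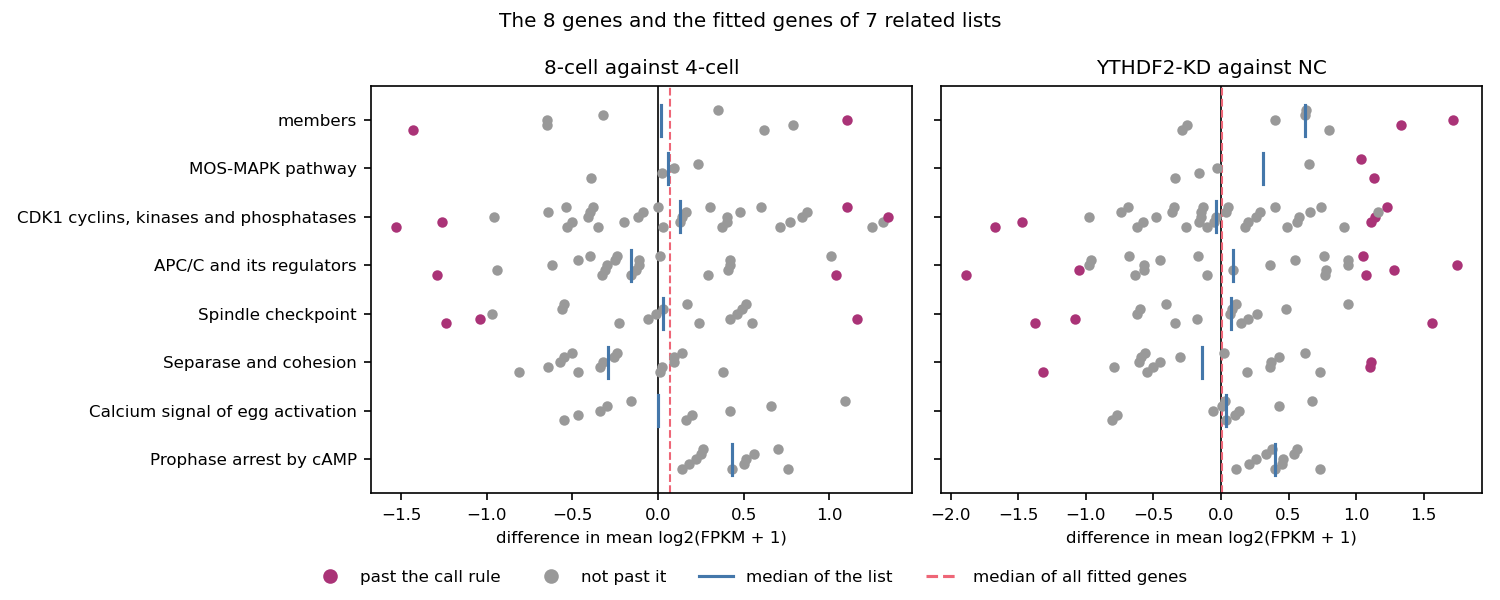
Difference in mean log2(FPKM + 1) of each fitted gene of the 8 regulators and of the 7 related lists, between 8-cell and 4-cell embryos (left) and between YTHDF2-KD and NC (right). Purple points passed the call rule, the blue line is the median of a list and the dashed line the median of all fitted genes. The median of the 8 genes lies at 0.01 on the left and at 0.63 on the right.

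Over the 9 untreated libraries, the gene most like each member in log2(FPKM + 1) was sought among the 3665 genes that have a symbol and average 10 FPKM or more. The Pearson r, given as a description over libraries that share stage, was 0.979 for *MOS* with *RRP1B*, 0.986 for *WEE2* with *ZNF346*, 0.961 for *FBXO43* with *ADD3*, 0.985 for *PTTG1* with *MAGOH*, 0.984 for *CCNB1* with *KIAA1524*, 0.969 for *CCNB2* with *EIF4G3*, 0.988 for *CDC20* with *MCM4* and 0.982 for *CDC25B* with *ATP6V1B2*. All 9 points include the 2 libraries that stood apart.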

How the data were processed

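FPKM values of 13 Smart-seq2 libraries (polyA RNA) were used as deposited. These FPKM had been made by the authors with HISAT2 (alignment to ARS1, the goat assembly), removal of reads without a unique position, HTSeq counting and scaling within each library. All value columns were used. The deposited tables give 2 decimals for injected embryos. In the untreated libraries the FPKM steps gave back whole fragments for 17916 of 17918 genes above 0 (tolerance 0.02 fragments) and the library totals, whereas rounding hid the depth of the injected ones. Gene symbols were checked against a RefSeq gene table of a later assembly release, so no coordinates are given, and strand use in counting is not given in the sources used here.

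Only names that each table lists once entered. Averages below 1 FPKM were filtered out. The scale was log2(FPKM + 1), and limma (version 3.58.1, under R 4.3.3, with a mean-variance trend) took the 9 untreated libraries in 1 fit (9090 genes) and the 4 injected libraries in another (11004 genes), with Benjamini-Hochberg adjustment over all genes of a fit. A difference on this scale understates the change of low genes. The scripts were tested on simulated data. Nothing says that the libraries of a group came from separate collections, so p-values measure the spread between these samples.

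The 8 genes, the 7 lists and the markers were chosen with earlier results of these data known. Named are all 8 genes, *YTHDF2*, the partners *CDK1*, *FBXO5*, *FZR1*, *ESPL1*, *MASTL*, *PKMYT1*, *WEE1* and *MAD2L1*, and per list and comparison up to 2 rises and 2 falls, the largest among called genes whose groups do not overlap and whose mean is at least 10 FPKM. A gene that this rule selects is not reported here. Marker genes and counts of 5 or fewer were named after their values were seen. Alternatives were a pseudocount of 0.1, no filter on low values, median-ratio rescaling, the same sum of FPKM in every library, a replicate block, the adjusted p in the rule, and leaving out each library. Chosen after seeing the data were limma voom on the recovered fragments, a crossed block, and leaving out 4-cell replicate 2 with 8-cell replicate 1. Summaries and plots were made in Python 3.11.15 (pandas 2.3.3, numpy 2.4.6, matplotlib 3.10.9).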

Additional observations from a re-analysis of the deposited data

How the results depend on the processing

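The depth of the injected libraries is unknown, groups hold 2 or 3 libraries, and where 1 of 2 is left out the lone library is assumed to vary like the others. Of 1538 alternative values of single genes, 38 changed sign. Of those that did not, 1388 kept their side of the rule or, for values with no test, stayed within the replicate SD, 78 lost a call, 19 gained one and 15 moved by more than the replicate SD.

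The count of the 8 genes past 2-fold and apart between 4-cell embryos and MII was 1, and 2 under median-ratio rescaling, 2 with the same sum of FPKM, 3 without the 2 libraries that stood apart, 5 when 1.5-fold was asked, and 1 to 3 with a library left out (3 without 4-cell replicate 2, 2 without 4-cell replicate 3). Between the embryo stages 2 were called, 1 by the adjusted p, 1 without the 2 libraries that stood apart, and 1 to 3 with a library left out (1 without 4-cell replicate 1, 4-cell replicate 3 or 8-cell replicate 1). After the knockdown 2 were called, 1 by the adjusted p, and 1 to 4 with a library left out (4 without NC replicate 1, adding *WEE2* and *CCNB2*, and 1 without NC replicate 2, leaving *FBXO43*). The listed genes called after the knockdown were 19, 5 by the adjusted p, and 9 to 25 with a library left out (9 without NC replicate 2). The count past 2-fold between 8-cell embryos and MII was 2 to 3 in every alternative run.

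Among the 8 genes in 8-cell embryos against MII, which have no test, sign changed for *WEE2* (0.47 became -0.09 without 8-cell replicate 1 or both libraries that stood apart), *FBXO43* (0.11 became -0.27 and -0.31 under the rescalings and -0.11 without 8-cell replicate 3), *CCNB1* (-0.04 became 0.04 without 8-cell replicate 3) and *CDC20* (-0.02 became 0.08, 0.68 and 0.12 without MII replicate 3, 8-cell replicate 2 or 8-cell replicate 3), and *MOS* came to 0 without 8-cell replicate 2. The other values that changed sign were those of *MOS* between the embryo stages without 4-cell replicate 3 (-0.04) or 8-cell replicate 1 (-0.35), *CDC20* and *ESPL1* without 8-cell replicate 1 (-0.23 and -0.33), and *ESPL1* without the 2 libraries that stood apart (-0.36). *MASTL* between the embryo stages gave -0.08 under median-ratio rescaling or without 4-cell replicate 1, -0.04 without 8-cell replicate 2, and -0.01 without 4-cell replicate 3 or 8-cell replicate 3, and *PKMYT1* -0.06 by voom. Against MII, *FZR1* in 8-cell embryos gave -0.14 under both rescalings, -0.12 without MII replicate 3 and -0.55 without 8-cell replicate 1 or both libraries. *MAD2L1* gave -0.14 and -0.38 under the rescalings in 4-cell embryos, and in 8-cell embryos 0.02 without MII replicate 2 and 0.04 without 8-cell replicate 1 or both libraries. With the same sum of FPKM, *MASTL* gave -0.13 and -0.02 in 4-cell and 8-cell embryos. After the knockdown, *CCNB2* gave -0.17 and *FZR1* -0.07 without NC replicate 2, *CDC25B* -0.01 without NC replicate 1, *FZR1* -0.21 without YTHDF2-KD replicate 1 and *MAD2L1* -0.22 without YTHDF2-KD replicate 2. With each library left out in turn, the highest value was 0.95 for *MOS*, 1.32 for *CDC20*, 0.75 for *ESPL1* and 0.09 for *MASTL* between the embryo stages, and 0.75 for *FZR1* in 8-cell embryos against MII, where the lowest of *MAD2L1* was -0.15. After the knockdown the highest was 1.43 for *CCNB2*, 0.81 for *CDC25B*, 1.30 for *FZR1* and 0.37 for *MAD2L1*. The cause of these changes was not tested.

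Replicate numbers are shared between groups, but samples with the same number did not deviate together (r from -0.508 to 0.201 in the untreated and -0.152 in the injected libraries). The main fit therefore did not pair the samples. This check cannot exclude pairing, since the deviations of 2 injected libraries mirror each other and the untreated values include the 2 libraries that stood apart. With a replicate block 784 genes were called between the embryo stages (803 without it) and 2688 after the knockdown (2728 without it), and the 8 genes gave 1, 2, 2 and 2 in the 4 comparisons as without it. A block with the numbers crossed gave 2810 calls. Among all genes, the count between the embryo stages was 1297 without 8-cell replicate 2 and, by the adjusted p, 208 higher and 288 lower, and that after the knockdown 227 higher and 651 lower by the adjusted p.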
